A study of Mus musculus with 27 samples.

Results

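Arc amacrine cells were compared with starburst amacrine cells, 2 kinds of inhibitory interneuron of the adult mouse retina. The comparison took the 3 arrays titled Arc and the 3 arrays of pure starburst cells, 6 of the 27 arrays in the series, and every gene with a usable probe set. Each array was made from 200 cells that were dissociated with papain and sorted by fluorescence. The Arc cells carried green fluorescent protein from the transgene Tg(Arc-EGFP)194Gsat/Mmcd, which uses the regulatory sequence of the neuronal gene Arc. The starburst cells carried red fluorescent protein from Rosa26-LSL-RFP, switched on by Cre recombinase from the Chat locus (129S6-Chat_tm1(cre)Lowl/J), and each sort drew on 6 pooled retinas. The number of retinas behind an Arc array is not given in the labels. A background label, the same for all 27 arrays, names a mixture of C57BL/6J with FVB/N-Swiss Webster hybrid. Per the labels, mice from the Mutant Mouse Regional Resource Centers came as such hybrids, which carry a recessive mutation causing photoreceptor degeneration. They were backcrossed to C57BL/6J and used in the F2 generation. The growth protocol, unlike the shared label, puts every line from elsewhere on C57BL/6J for some generations already, so the background of the Arc and starburst mice may not have been the same. In the study's design the Arc cells served as a control between batches of arrays, so their comparison with starburst cells is one the arrays allow and not a stated aim. Line, reporter colour, sort and cell type changed together between the groups and cannot be told apart. The labels do not say whether the Arc and starburst arrays were hybridised in one batch, so a difference between batches was not tested either. The other arrays held cones from the Tg(Chrnb4-EGFP)1Gsat line and mixtures of cones with starburst cells, and they enter only through the shared estimate of spread and, for the pure cones, as levels to set beside some genes.

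Amacrine cells sit between bipolar cells and ganglion cells and shape what ganglion cells report to the brain. Most release GABA or glycine, and many subtypes add a neuropeptide, a monoamine or acetylcholine. Starburst cells are the retina's cholinergic amacrine cells: they make acetylcholine and GABA, and they are known for their part in direction selectivity. The genes Slc18a3 (the vesicular acetylcholine transporter), Calb2 (calretinin) and Isl1 (a homeodomain transcription factor) are familiar labels of starburst cells. Vip and Cartpt encode peptide precursors of other amacrine subtypes, and Sstr2 encodes a somatostatin receptor.

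The sequences below are the 250 bases before the annotated start of these marker genes, from RefSeq on GRCm38.p6, shown because the results turn on them. Vip, Cartpt and Sstr2 were high in Arc cells, and Isl1 and Slc18a3 in starburst cells. Capitals mark the letters TGACGTC on either strand, the core of the cyclic AMP response element, extended to the palindrome TGACGTCA where the sequence has it.
Vip (chr10:5638968-5639217, plus strand): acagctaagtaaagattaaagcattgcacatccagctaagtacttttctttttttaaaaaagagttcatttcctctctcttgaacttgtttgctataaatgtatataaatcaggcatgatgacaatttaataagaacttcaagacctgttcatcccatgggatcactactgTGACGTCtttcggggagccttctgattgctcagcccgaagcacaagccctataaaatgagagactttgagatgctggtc
Cartpt (chr13:99900684-99900933, minus strand): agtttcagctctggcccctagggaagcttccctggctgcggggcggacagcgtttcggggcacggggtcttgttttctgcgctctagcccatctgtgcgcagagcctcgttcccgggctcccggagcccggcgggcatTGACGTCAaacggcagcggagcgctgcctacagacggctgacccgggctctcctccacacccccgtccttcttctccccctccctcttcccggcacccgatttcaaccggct
Sstr2 (chr11:113619077-113619326, plus strand): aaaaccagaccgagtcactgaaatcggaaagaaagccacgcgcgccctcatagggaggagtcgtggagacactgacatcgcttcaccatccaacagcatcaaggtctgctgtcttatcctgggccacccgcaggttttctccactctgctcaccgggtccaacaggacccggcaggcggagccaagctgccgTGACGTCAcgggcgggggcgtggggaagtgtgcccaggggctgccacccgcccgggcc
Isl1 (chr13:116309689-116309938, minus strand): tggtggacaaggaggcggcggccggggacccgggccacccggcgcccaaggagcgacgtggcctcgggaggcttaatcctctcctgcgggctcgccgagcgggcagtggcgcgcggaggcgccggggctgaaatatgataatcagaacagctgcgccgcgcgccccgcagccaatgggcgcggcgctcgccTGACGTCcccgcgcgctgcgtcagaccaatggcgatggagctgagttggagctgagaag
Slc18a3 (chr14:32464851-32465100, minus strand): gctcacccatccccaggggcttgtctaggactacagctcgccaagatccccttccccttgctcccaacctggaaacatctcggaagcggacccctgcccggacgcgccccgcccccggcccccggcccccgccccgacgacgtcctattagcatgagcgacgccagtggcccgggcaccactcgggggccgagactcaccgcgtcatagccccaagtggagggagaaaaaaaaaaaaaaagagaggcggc
The 7 letters began 79 bases before the start of Vip, 112 before Cartpt, 58 before Sstr2 and 59 before Isl1, and Cartpt and Sstr2 held the full palindrome of 8 letters. Slc18a3 had no match. Of 12 genes looked up, 11 had an entry, and Calb2 did not. The promoters of Tac1, Tac2, Cck, Pomc, Slc10a4 and Chat, genes described further on, also had no match. Among 9937 tested genes with a sequence, 494 (4.97%) held the 7 letters, against 914 of 32851 (2.78%) over all promoters in the table. The share was 11 of 201 (5.47%) among genes called higher in Arc cells and 3 of 125 (2.4%) among those called lower. A match is a run of letters and was not tested as a site, and the palindrome is part of the same count.

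Values are log2 expression levels as the authors normalized them, so a difference of 1 is a 2-fold difference. Array medians lay between 2.78 and 2.89. Correlations over the tested genes were 0.971 to 0.973 between Arc arrays, 0.957 to 0.965 between starburst arrays and 0.921 to 0.934 between an Arc and a starburst array. The median standard deviation of a gene over 3 arrays was 0.18 in Arc and 0.21 in starburst cells. Some arrays stood apart in genes of other origin. Starburst replicate 2 had the highest level of the bipolar cell genes Pcp2 (5.63, against 3.41 and 3.78) and Gng13 (5.74, against 3.67 and 3.93). Starburst replicate 1 was highest for the glial gene S100b (5.27, against 2.67 and 3.02) and the microglial gene Cx3cr1 (5.47, against 3.78 and 3.78). Arc replicate 3 was lowest for Xist (5.0, against 8.38 and 8.02) and highest for the Y-linked Eif2s3y (4.50, against 1.83 and 1.64). Starburst replicate 3 stood apart the same way, with Xist at 6.40 against 7.82 and 7.45 and Eif2s3y at 3.18 against 1.72 and 1.91. Each count was therefore also taken without each array.

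With limma fitted on all 27 arrays, a gene was called different when its log2 difference was at least 1 and its p, adjusted for 12441 tested genes by the Benjamini-Hochberg method, was under 0.05. On that rule 442 genes differed, 3.55% of those tested: 269 were higher in Arc cells (2.16%) and 173 were lower (1.39%). Those shares are the ones to set beside each list count below. List members were chosen with earlier results of these data known, so list counts describe the lists and test no theme. The median difference over all tested genes was 0.03. In 438 of the 442 the 3 Arc values lay all above or all below the 3 starburst values, a separation found in 25% of all tested genes. The call stood in each of 6 fits that left out 1 array for 270 genes (2.17%), 167 higher (1.34%) and 103 lower (0.828%), and such calls are said below to have held. Every called gene described below had held unless the text says otherwise. Differences under 2 on the log2 scale made up 185 of the higher and 126 of the lower calls, and 11 higher and 13 lower genes differed by 4 or more. For 78 of the higher and 36 of the lower genes the mean of the lower group was under 2.83, the median of all values on all arrays and the level used as a filter. A value under that level does not show that RNA was absent, and a fold measured from it is understated. With 3 arrays against 3, an exact permutation test on a single gene cannot go below p = 0.1, so calls rest on the spread that limma shares between genes. In sorted pools such as these, fewer cells with a transcript and less of it per cell cannot be told apart.

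**Figure D1:**
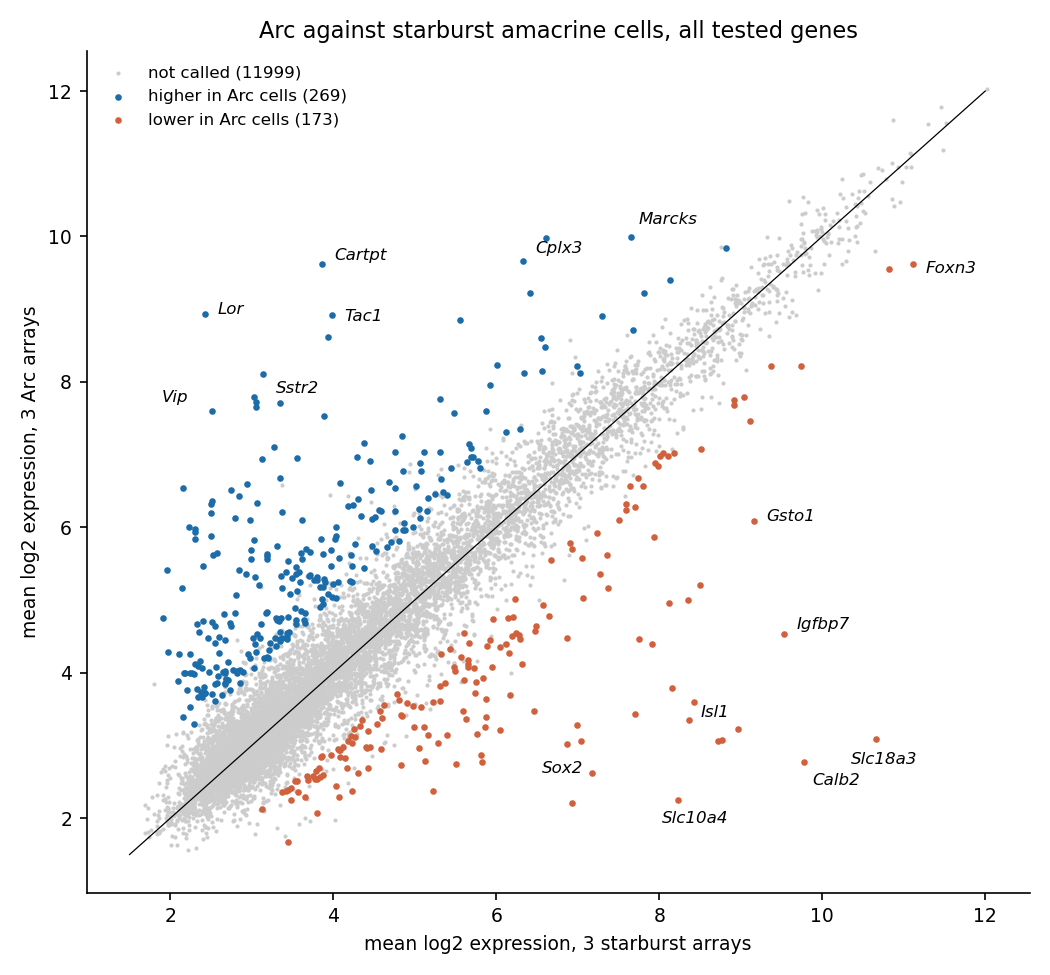
Mean log2 expression on the 3 starburst arrays (horizontal axis) against the 3 Arc arrays (vertical axis) for each of the 12441 tested genes. Blue points are the 269 genes called higher in Arc cells and orange points the 173 called lower, and the line marks equal levels: Slc18a3 and Calb2 lie farthest below it and Lor farthest above.

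The markers split the arrays with no intermediate value. Vip, which encodes the precursor of vasoactive intestinal peptide, read 7.38, 7.64 and 7.80 on the Arc arrays and 2.44, 2.47 and 2.63 on the starburst arrays. All starburst values were under the filter level, and the difference was 5.09 ± 0.30 (SE, adjusted p = 4.11e-11). Cartpt, the precursor of cocaine- and amphetamine-regulated transcript peptides, read 9.62, 9.49 and 9.75 against 3.95, 3.85 and 3.78. The gap of 5.76 carried an SE of 0.75 from the shared fit (adjusted p = 1.93e-05) although these 6 arrays alone give 0.13. Cone arrays differed from one another in Cartpt (4.71, 4.05 and 7.93), and they enter that shared spread. Sstr2 read 8.50, 7.41 and 8.41 against 3.10, 2.83 and 3.49, and replicate 2 was the lowest Arc array. Its difference was 4.97 ± 0.29 (adjusted p = 5.33e-11).

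On the starburst side Slc18a3, which loads acetylcholine into vesicles, read 10.62, 10.77 and 10.59 against 3.17, 2.84 and 3.25 on the Arc arrays. At -7.57 ± 0.23 (adjusted p = 3.95e-16), or 190-fold, it was the widest difference of any tested gene. Calb2, which encodes the calcium buffer calretinin, read 9.99, 9.67 and 9.68 against 2.80, 2.70 and 2.82 on the Arc arrays, all under the filter level. The difference was -7.01 ± 0.19 (adjusted p = 1.09e-16). Pure cones were near the Arc values for both (3.56, 3.10 and 2.81 for Slc18a3, and 3.01, 2.83 and 2.72 for Calb2).

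The labels were then set against the wider markers. Both groups carried genes of amacrine cells in general: Pax6, a transcription factor of amacrine identity, averaged 7.46 ± 0.27 (SD, n = 3) in Arc and 6.67 ± 0.09 in starburst cells, and Tfap2b 7.29 ± 0.28 and 6.51 ± 0.31. Neither passed the call (adjusted p = 0.114 and 0.0563). Tfap2a, an AP-2 factor related to Tfap2b, was higher in Arc cells (5.94, 5.72 and 5.87 against 4.46, 3.70 and 3.88). Tfap2c, the glycine transporter gene Slc6a9 and Six3 were under the filter level on all 6 arrays. Of the 8 starburst markers, 7 were called in the starburst direction (Slc18a3, Calb2, Isl1, Sox2, Slc10a4, Chat and Slc5a7), and Megf10 was near the filter level in both groups (2.87 ± 0.36 in starburst, 2.69 ± 0.18 in Arc). All 3 of Vip, Cartpt and Sstr2 were high on every Arc array. These pools cannot show whether the same Arc cells held all 3.

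**Figure D2:**
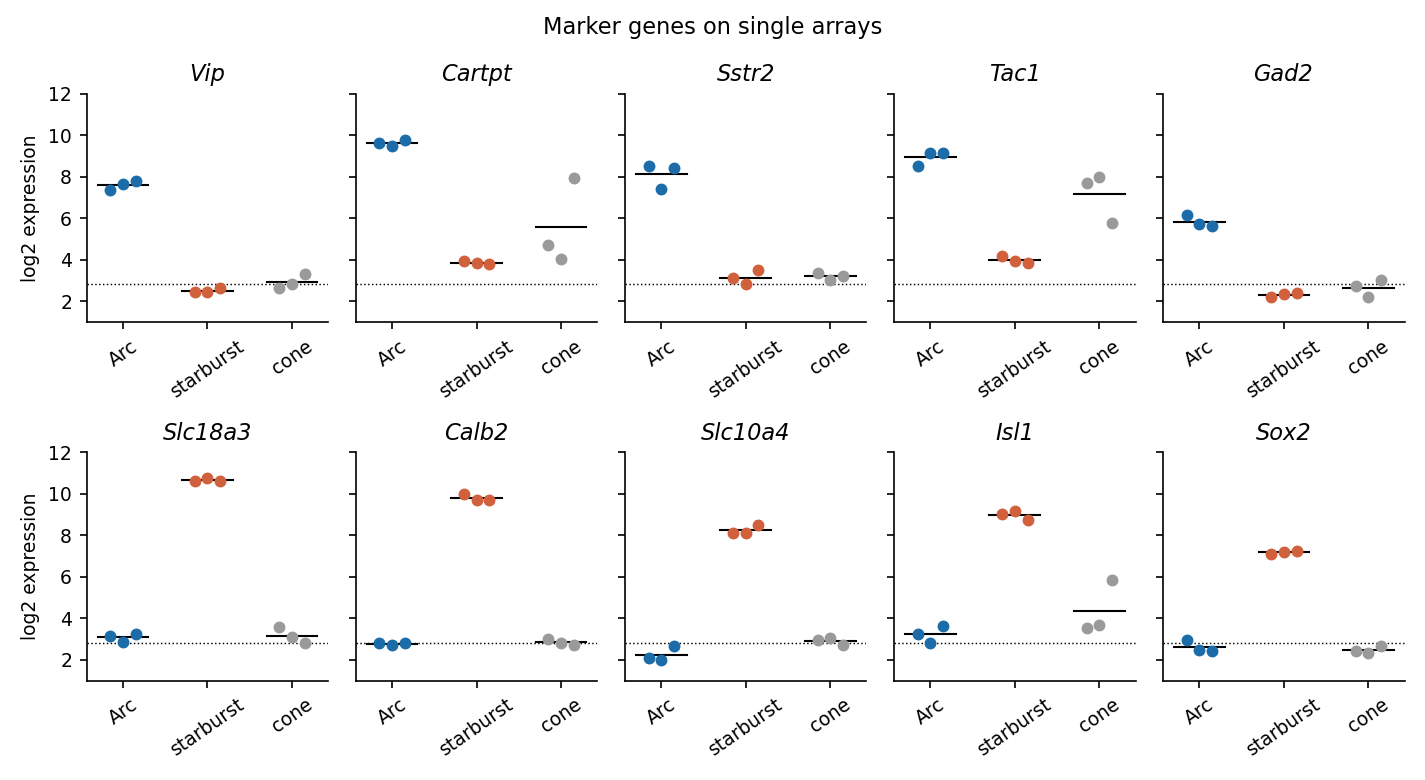
Log2 expression of 10 genes on each of 3 Arc (blue), 3 starburst (orange) and 3 pure cone arrays (grey), with group means as bars and the filter level of 2.83 dotted. The upper row is high on every Arc array and the lower row on every starburst array; all 3 cone values of Tac1 and 1 of Cartpt (7.93) also lie well above the starburst ones.

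The reporter genes themselves were read next. Arc, an immediate early gene whose protein acts at synapses, read 4.57, 4.58 and 4.46 on Arc arrays and 3.21, 2.79 and 3.21 on starburst arrays. The level was modest but separated, at 1.47 ± 0.14 (adjusted p = 1.73e-07). Chat, the acetylcholine-synthesising enzyme whose locus drove Cre in the starburst line, read 3.85, 3.81 and 4.58 against 3.04, 2.71 and 2.79. Its call (-1.23 ± 0.22, adjusted p = 9.41e-04) did not hold: without starburst replicate 3 the difference was -0.98. Chrnb4, the nicotinic subunit gene of the cone line, was at or near the filter level in both groups (2.42, 2.44 and 2.52 in Arc; 2.76, 2.31 and 3.06 in starburst).

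Of 6 tested genes for making, packing and breaking down acetylcholine, 4 were lower in Arc cells and 1 was higher, against 1.39% and 2.16% of all tested genes. Slc10a4, a transporter-like protein of cholinergic vesicles, read 8.09, 8.11 and 8.51 in starburst cells and lay between 2.01 and 2.64 in Arc cells, a difference of -5.98 ± 0.20 (adjusted p = 1.43e-15). Slc5a7, the choline transporter of the nerve terminal, was low in both (2.55, 2.43 and 2.75 against 3.56, 3.05 and 4.42), and its call was lost without Arc replicate 2 (adjusted p = 0.0517) or starburst replicate 3 (0.0822). Ache, the enzyme that breaks acetylcholine down, ran the other way. It read 7.65, 7.78 and 7.86 in Arc cells and 5.61, 5.34 and 4.97 in starburst cells, so it was 5.49-fold higher in the group that was low in the vesicular transporter (2.46 ± 0.44, adjusted p = 8.86e-04). The median of the 6 was -1.17. Among 10 tested receptor genes and modulators for acetylcholine, Lynx1 alone was called, higher in Arc cells (4.99, 5.51 and 5.02 against 3.61, 3.51 and 3.00); its product is a membrane-anchored modulator of nicotinic receptors. The median of the 10 was -0.10.

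Neuropeptide precursors gave 7 calls among 20 tested genes, 4 higher and 3 lower in Arc cells, and all 7 held. Over all tested genes 3.55% were called. Besides Cartpt and Vip, Arc cells were high in both tachykinin genes. Tac1, the precursor of substance P and neurokinin A, read 8.51, 9.13 and 9.12 against 4.17, 3.92 and 3.85 (4.94 ± 0.80, adjusted p = 2.51e-04). Pure cone arrays were also high in Tac1 (7.69, 7.99 and 5.78), but across the mixtures its level did not follow the number of cones. Mixtures with starburst cells averaged 4.63 at 183 cones, 7.22 at 157, 5.24 at 150 and 2.47 at 100. Tac2, the precursor of neurokinin B, read 6.01, 5.19 and 5.64 against 2.35, 2.49 and 2.73. The other 3 were higher in starburst cells. Cck, the cholecystokinin precursor, read 8.18, 8.48 and 8.45 in starburst and 3.14, 3.03 and 3.90 in Arc cells (-5.02 ± 0.41, adjusted p = 1.16e-08). Pomc, the precursor of melanocortins and beta-endorphin, read 7.13, 7.01 and 6.81 against 3.34, 2.95 and 3.55. Npy was plentiful in both, with 9.25, 9.48 and 9.36 in starburst cells and 8.25, 8.42 and 7.98 in Arc cells, a smaller step of -1.15 ± 0.24 (adjusted p = 0.00357). The median of the 20 was 0.00, and 13 of the 20 passed no call.

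The machinery that makes and packs peptides gave 1 call. Among 10 tested granins and processing enzymes, Chga (chromogranin A, a core protein of dense-core vesicles) was called, with 6.34, 6.04 and 6.31 in Arc and 4.57, 4.45 and 4.73 in starburst cells. Cpe, the carboxypeptidase that trims peptide ends, averaged 10.48 ± 0.05 (SD, n = 3) in Arc and 9.82 ± 0.23 in starburst cells (adjusted p = 0.368). Scg2, secretogranin II, read 8.90, 8.42 and 8.57 against 9.34, 9.41 and 9.29 and was not called (adjusted p = 0.154). Sstr2 was the only one called among 10 tested peptide receptors, while 17 others on the list were too dim to test.

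**Figure D3:**
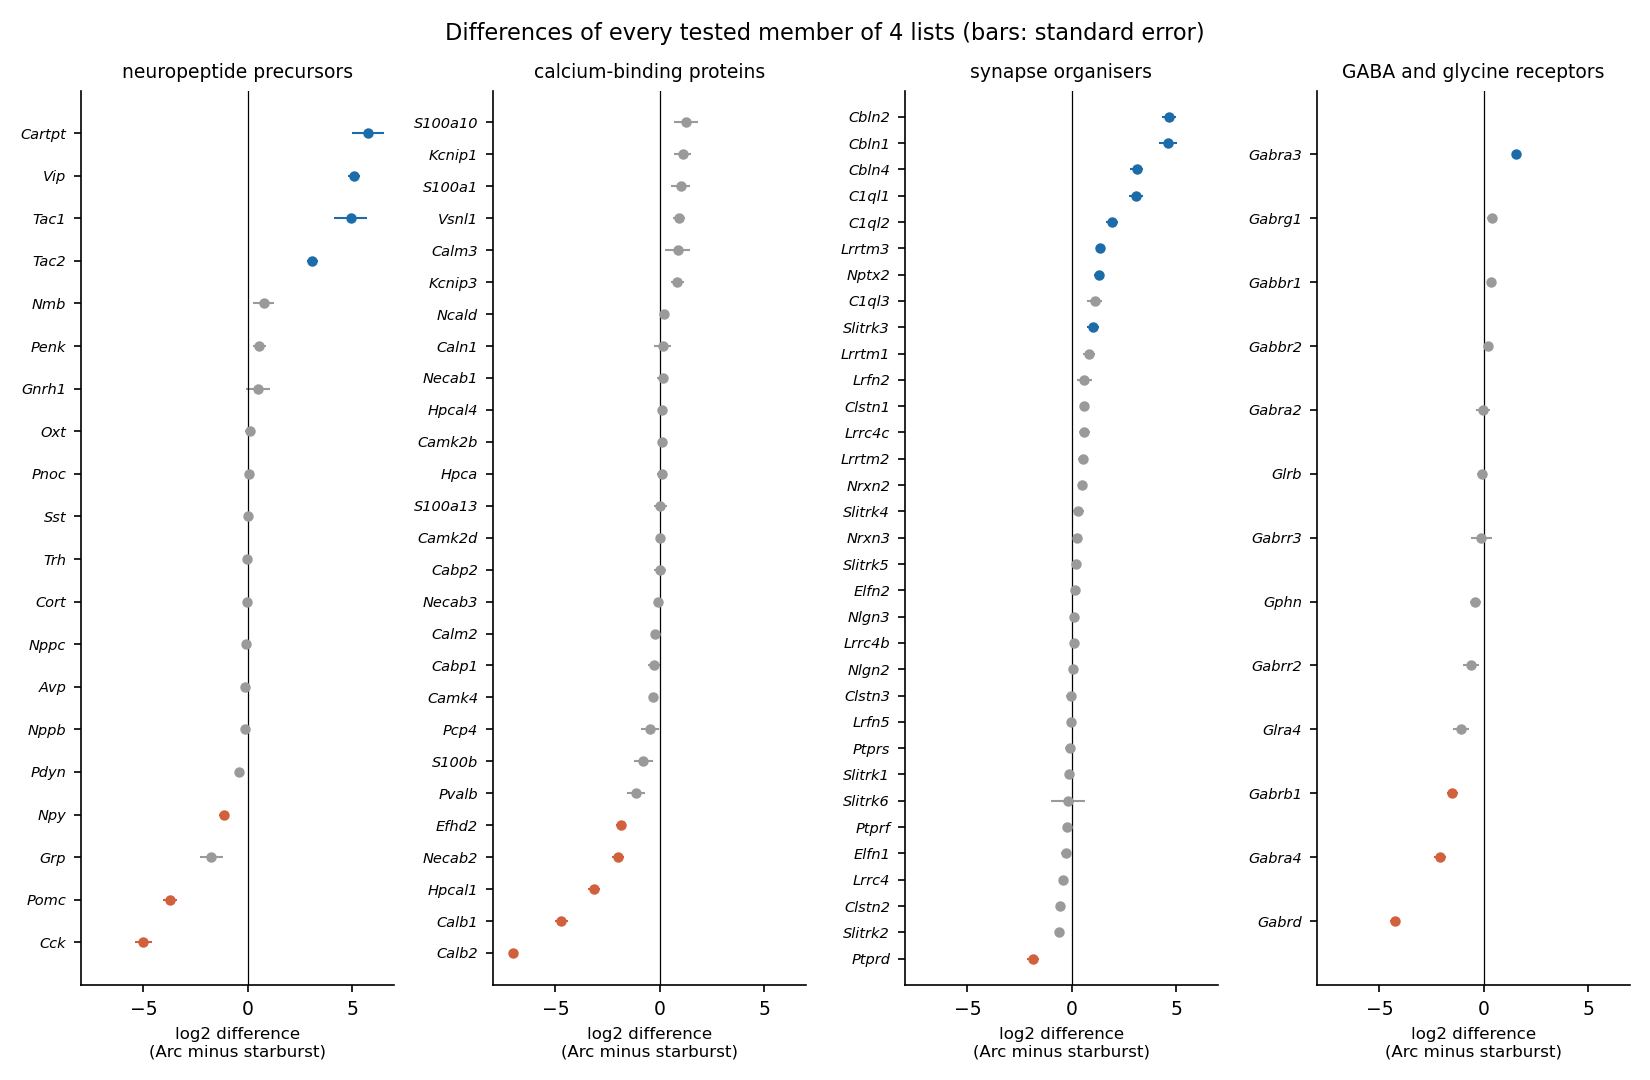
Log2 difference, Arc minus starburst, with its standard error for every tested member of 4 gene lists. Blue points were called higher in Arc cells, orange points lower and grey points were not called; the calcium-binding list has calls only on the starburst side, the synapse organisers mostly on the Arc side.

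Both cell types carried the genes for GABA release. Slc32a1, the vesicular inhibitory amino acid transporter, read 8.42, 8.30 and 8.21 in Arc and 7.93, 8.13 and 8.07 in starburst cells (adjusted p = 0.529). Gad1, one of the GABA-synthesising enzymes, read 8.52, 8.48 and 8.22 against 8.25, 8.14 and 8.26 (adjusted p = 0.848). The other synthase gene did separate them: Gad2 read 6.18, 5.71 and 5.61 in Arc cells and 2.19, 2.33 and 2.39 in starburst cells, all of the latter under the filter level (3.53 ± 0.24, adjusted p = 6.86e-10). It was the 1 call among 7 tested genes of GABA and glycine synthesis and transport. Th, tyrosine hydroxylase of catecholamine synthesis, was also higher in Arc cells (5.01, 4.63 and 4.78 against 2.90, 2.47 and 2.60; 2.15 ± 0.25, adjusted p = 2.47e-06). On the monoamine list 2 of 13 tested genes were called higher and 1 lower, and the other 2 calls, Drd5 and Tph1, did not hold. Drd5 was lost without Arc replicate 1 or 2 or starburst replicate 2 or 3 (adjusted p up to 0.214), and Tph1 without Arc replicate 1 or starburst replicate 2 (up to 0.136).

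Receptors for GABA and glycine gave 1 higher and 3 lower calls among 13 tested genes, against 2.16% and 1.39% of all tested genes. The median of the 13 was -0.11. Gabrd, the delta subunit of extrasynaptic GABA-A receptors, read 7.58, 7.86 and 7.68 in starburst and 3.20, 3.47 and 3.65 in Arc cells (-4.27 ± 0.24, adjusted p = 3.54e-11). Gabra4, an alpha subunit that often pairs with delta, read 4.71, 4.74 and 5.04 against 2.62, 2.66 and 2.93 (-2.09 ± 0.30, adjusted p = 5.53e-05). Gabrb1, its neighbour in the genome, read 4.72, 5.61 and 5.59 against 4.24, 3.93 and 3.27. The starburst side thus held an alpha, a beta and the delta subunit. Gabra3 was the call on the Arc side (4.24, 3.29 and 3.75 against 2.30, 2.15 and 2.17; 1.55 ± 0.18). Glrb, the glycine receptor beta subunit, overlapped between groups (5.72, 5.24 and 5.12 against 5.47, 5.57 and 5.33).

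Glutamate receptors and transporters gave 2 higher and 3 lower calls among 16 tested genes, and 1 of each held. Over all tested genes 2.16% were called higher and 1.39% lower. Neto2, an auxiliary subunit of kainate receptors, was higher in Arc cells (3.94, 3.84 and 5.06 against 1.96, 2.03 and 1.92; 2.31 ± 0.24). Grm8, a presynaptic metabotropic receptor, was higher in starburst cells (5.39, 5.68 and 5.88 against 4.26, 4.02 and 4.10; -1.53 ± 0.28). Grm2, the metabotropic receptor known from starburst cells, read 6.20, 6.71 and 5.78 in starburst and 4.81, 4.88 and 5.34 in Arc cells. Its call was lost without starburst replicate 2, where the difference was -0.98. Gria3, an AMPA receptor subunit, was called higher in Arc cells but fell to 0.95 without Arc replicate 1, and Grm3, lower, lost its call without Arc replicate 1 or 3 or starburst replicate 1 or 2 (adjusted p up to 0.184). Gria4, a further AMPA subunit, did not separate the groups (4.79, 4.86 and 5.06 against 4.61, 5.23 and 4.51).

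Calcium-binding proteins gave 5 calls among 27 tested genes, all lower in Arc cells, and all held. Over all tested genes 1.39% were called lower and 2.16% higher. After Calb2 came Calb1, calbindin, with 6.92, 6.88 and 6.98 in starburst and 2.25, 2.32 and 2.07 in Arc cells (-4.71 ± 0.33, adjusted p = 9.32e-10). Hpcal1, a hippocalcin-like calcium sensor, read 8.26, 7.99 and 8.10 against 4.17, 5.10 and 5.61, and Necab2, an EF-hand protein of neurons, 5.02, 5.44 and 5.03 against 3.33, 3.14 and 2.97. The fifth was Efhd2, at -1.87. The Arc arrays were thus low in calretinin and calbindin, both widely used labels of amacrine cells. The median of the list was 0.02, and its brightest members were not called: Calm2 (calmodulin) read 10.69, 10.78 and 10.79 against 10.98, 11.10 and 10.85, and Pcp4, a calmodulin-binding peptide, 10.54, 10.28 and 10.44 against 10.91, 10.78 and 10.96 (adjusted p = 0.61 and 0.728).

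Transcription factors of amacrine and retinal identity gave 6 higher and 3 lower calls among 53 tested genes, with a median of 0.02. Isl1 read 9.02, 9.15 and 8.74 in starburst and 3.25, 2.79 and 3.63 in Arc cells (-5.75 ± 0.39, adjusted p = 6.41e-10). Sox2, better known from progenitors and glia and also a label of starburst cells, read 7.11, 7.17 and 7.25 against 2.96, 2.46 and 2.44 (-4.55 ± 0.20, adjusted p = 4.47e-13). On the Arc side Meis2, a homeodomain factor of GABAergic amacrine cells, read 4.40, 5.04 and 6.07 against 2.23, 2.28 and 1.90 (3.03 ± 0.31, adjusted p = 5.84e-07). Lhx9, a LIM homeodomain factor, read 4.39, 3.78 and 3.49 against 2.04, 1.84 and 2.39. Nr4a2, a nuclear receptor and immediate early gene, read 4.60, 4.24 and 4.51 against 2.88, 2.49 and 2.66. Calls among these factors went in both directions. Neurod1, a bHLH factor of photoreceptors and amacrine cells, passed the adjusted p (0.00127) but not the fold (7.95, 8.21 and 8.31 against 9.07, 9.06 and 9.08). Id4 was not called (7.37, 7.50 and 7.55 against 8.08, 8.12 and 8.35; adjusted p = 0.105). The third lower call, Fezf1, was lost without any 1 of the Arc arrays or starburst replicate 2, and without starburst replicate 2 it was -0.70.

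Synapse organisers had more calls higher in Arc cells than any other list, though lists differ in size. Of 33 tested genes 8 were called higher and 1 lower, against 2.16% and 1.39% of all tested genes. As a share, the 5 of 19 called higher on the lipid list was no smaller. Wholly above the starburst values lay 14 of 33, against 14.5% of all tested genes. Members of this list were also chosen with earlier results of these data known, so the counts describe it and test no theme. Cerebellins and C1q-like proteins, secreted proteins that bridge the 2 sides of a synapse, led. Cbln2 read 7.65, 7.64 and 7.88 in Arc and 3.23, 3.10 and 2.83 in starburst cells (4.67 ± 0.34, adjusted p = 2.54e-09). Cbln1 read 7.81, 7.64 and 7.50 against 2.41, 4.07 and 2.66, with starburst replicate 2 above the others (4.60 ± 0.42, adjusted p = 8.46e-08). Cbln4 read 6.44, 6.21 and 5.66 against 2.83, 2.82 and 3.29. All 3 cerebellin genes that could be tested were thus high in Arc cells. C1ql1 read 6.90, 5.19 and 4.86 against 2.24, 2.71 and 2.75, and C1ql2 and Lrrtm3 were higher by 1.94 and 1.38. Nptx2, a pentraxin that gathers AMPA receptors, read 4.45, 4.48 and 3.83 against 3.15, 2.79 and 2.93. Slitrk3 was called at 1.00 but was lost without Arc replicate 1 (0.59) or starburst replicate 1 or 3 (adjusted p = 0.135 and 0.143). Ptprd, a receptor phosphatase that binds synaptic partners, was the lower one (4.50, 4.56 and 4.85 against 6.32, 6.56 and 6.60). Nrxn3, a neurexin through which cerebellins act, overlapped (5.13, 5.04 and 4.91 against 4.61, 4.97 and 4.72). The list's median was 0.26.

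Cell surface molecules of layers and mosaics gave few calls. Among 29 tested adhesion molecules 1 was called, 3.45%, close to the share of all genes. It was Megf11, a homotypic recognition molecule of starburst mosaics, with 4.68, 4.74 and 4.93 in starburst and 3.68, 3.68 and 3.78 in Arc cells, and it was just under the fold without starburst replicate 3 (-0.998). Lsamp was not called and read 5.26, 5.22 and 5.09 against 5.75, 5.40 and 5.74. Cadherins gave 1 higher and 2 lower calls of 20: Cdh6 read 5.37, 6.02 and 5.39 in starburst and 3.37, 3.46 and 3.60 in Arc cells (-2.12 ± 0.24, adjusted p = 2.93e-06), and Pcdh10 4.94, 4.81 and 4.80 against 3.25, 3.44 and 3.52. Pcdh19 did not hold, at 0.61 without Arc replicate 1 and an adjusted p of 0.0509 without starburst replicate 2. Of 29 tested guidance genes 1 was called, Epha7, and it was lost without any 1 array other than Arc replicate 3 (adjusted p up to 0.188).

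Ion channels separated the groups in both directions. Of 43 tested potassium and HCN channel genes 3 were higher and 3 lower in Arc cells, against 2.16% and 1.39% of all tested genes. Kcnmb4, the beta subunit that modulates large-conductance calcium-activated channels in neurons, read 8.68, 8.94 and 8.70 in starburst and 3.61, 2.66 and 2.98 in Arc cells (-5.69 ± 0.30, adjusted p = 1.01e-11). Kcnf1, an electrically silent subunit that joins the Kv2 family, read 5.75, 5.81 and 5.72 against 3.01, 2.99 and 3.47 (-2.60 ± 0.24). Kcnb2, a member of that Kv2 family, read 4.86, 5.74 and 5.58 against 3.23, 3.09 and 3.09 (-2.25 ± 0.30). Starburst cells therefore had the higher level of a Kv2 subunit and of a silent partner. Kcna5, a Shaker channel, was higher in Arc cells (8.04, 8.44 and 8.23 against 5.72, 6.04 and 6.28; 2.22 ± 0.49, adjusted p = 0.00664). Kcnab3 was called higher but was lost without Arc replicate 3 (adjusted p = 0.0706) or starburst replicate 3 (0.0507), and Dpp6 was 0.91 without Arc replicate 2. The probe set of Dpp6 that was not used differed by 0.16 where the one used differed by 1.18. Kcnip1, a modulator of Kv4 channels, was not called (6.79, 6.55 and 6.99 against 5.69, 5.93 and 5.40; adjusted p = 0.125), although the 6 arrays alone gave adjusted p = 0.0192. Of 18 tested sodium, calcium and TRP channel genes 1 was called, the cation channel gene Trpc6 (3.95, 4.66 and 3.67 in Arc against 2.43, 2.36 and 2.21).

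In the release machinery, complexins, proteins that clamp and promote vesicle fusion, were called in opposite directions. Cplx3, a complexin of amacrine cells and of ribbon synapses, read 9.90, 9.57 and 9.51 in Arc and 5.56, 7.32 and 6.09 in starburst cells (3.34 ± 0.43, adjusted p = 1.77e-05), with cones between (9.30, 8.62 and 8.06). Cplx4, its relative from photoreceptor synapses, read 5.56, 5.60 and 4.78 in starburst and 4.0, 3.37 and 3.47 in Arc cells (-1.70 ± 0.29, adjusted p = 4.60e-04). Unc13c, a priming factor, was higher in Arc cells (4.80, 3.52 and 3.64 against 2.16, 2.28 and 2.43). Calls of Syt5 and Syt12, both higher in Arc cells, did not hold. Syt5 was lost without Arc replicate 1 or starburst replicate 2 or 3 (adjusted p up to 0.11), and Syt12 without Arc replicate 2 or 3 or starburst replicate 1 or 2 (up to 0.138). In all, 4 of 46 tested vesicle genes were higher and 1 lower. A further pattern lay under the fold limit: 20 of 46 lay wholly above the starburst values, against 14.5% of all tested genes, and the median was 0.24. Snap25, a SNARE protein, read 8.44, 8.38 and 8.37 against 7.87, 7.90 and 7.80, a difference of 0.54 that passed the adjusted p (0.036). Syt1, the calcium sensor of release, read 7.83, 7.79 and 7.48 against 7.31, 7.36 and 7.24 and passed neither limit (adjusted p = 0.273).

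Genes of axon growth and the neuronal cytoskeleton were higher in Arc cells in 6 of 32 tested and lower in 3, with a median of 0.24. The shares over all tested genes were 2.16% and 1.39%. Gap43, a growth cone protein, read 7.82, 7.33 and 7.43 against 3.92, 3.88 and 3.85 (3.64 ± 0.24, adjusted p = 3.78e-10). Marcks and Marcksl1, related actin-binding substrates of protein kinase C, were high in both groups and higher in Arc cells. Marcks lay between 9.84 and 10.15 in Arc cells and read 7.60, 7.84 and 7.50 in starburst cells (2.35 ± 0.28), and Marcksl1 9.22, 8.97 and 9.46 against 6.51, 6.32 and 6.41 (2.81 ± 0.37). Thy1, a surface glycoprotein of projection neurons, read 7.09, 6.75 and 5.96 against 3.73, 4.69 and 3.84. The other 2 higher calls were Uchl1 at 1.72 and Stmn4 at 1.19. Dpysl3, a collapsin response mediator, was lower (3.81, 4.57 and 4.46 against 6.15, 5.90 and 6.43). Calls of Ina, an intermediate filament, and Omg, a myelin glycoprotein of neurons, both lower in Arc cells, did not hold. Ina was lost without Arc replicate 2 or starburst replicate 1 or 2 (adjusted p up to 0.149), and Omg without Arc replicate 2 or 3 or starburst replicate 1 or 3 (up to 0.118). Stmn1 was not called (9.99, 10.06 and 9.90 against 9.73, 9.39 and 9.30; adjusted p = 0.348). Gap43 and Thy1 are also ganglion cell genes, and they were the 2 calls among 9 tested genes of that list. Its summed level was 8.43 to 8.85 in Arc and 6.85 to 7.10 in starburst cells, while 5 of its 14 measured genes were under the filter level on all 6 arrays, namely Pou4f1, Pou4f3, Rbpms, Rbpms2 and Slc17a6. Of the 9 tested genes 3 lay wholly above the starburst values and 0 wholly below, against 14.5% and 10.5% of all tested genes. The median of the 9 was 0.43. The part of ganglion cell RNA in these differences was not tested.

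Among 27 tested neuronal RNA-binding genes, Elavl4 (HuD, which stabilises neuronal transcripts) was higher in Arc cells, with 6.03, 5.98 and 5.62 against 2.23, 2.95 and 2.30 (3.38 ± 0.28, adjusted p = 1.53e-08). A call of Celf4 in the same direction did not hold (0.91 without starburst replicate 2, and adjusted p = 0.0582 and 0.0528 without Arc replicate 1 and 3). Celf2 overlapped between groups (6.42, 6.18 and 6.30 against 6.40, 6.45 and 6.46).

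Signalling through G proteins and cyclic nucleotides gave 4 higher and 2 lower calls of 49 tested, with a median of 0.00. Prkar2b, the neuronal type II regulatory subunit of protein kinase A, read 6.31, 6.57 and 6.41 in Arc and 2.80, 3.20 and 2.52 in starburst cells (3.59 ± 0.33, adjusted p = 8.41e-08). Adcy8, a calcium-stimulated adenylyl cyclase, read 5.14, 4.61 and 4.72 against 2.86, 3.29 and 3.39 (1.64 ± 0.20). Gng8, a G protein gamma subunit, read 7.04, 6.14 and 5.46 against 1.88, 5.13 and 3.11. Its starburst values were widely spread, and the call was lost in a fit of the 6 arrays alone (adjusted p = 0.0953). Gna14, an alpha subunit of the Gq family, was lower in Arc cells (2.93, 2.72 and 3.21 against 5.11, 4.17 and 4.46). So was Htr2b, a serotonin receptor gene outside this list and the monoamine list. Htr2b read 3.33, 2.49 and 3.35 against 7.03, 7.05 and 7.05 (-3.99 ± 0.42). Prkcb, higher in Arc cells, was lost without Arc replicate 2 or starburst replicate 3 (adjusted p = 0.0624 and 0.0819). Prkg2, lower, was lost without any 1 of the Arc arrays or starburst replicate 2 (up to 0.178).

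Among 43 tested growth factors, their binding proteins and receptors 3 were higher and 3 lower, and all held. Igfbp2 read 7.56, 8.06 and 7.52 in Arc and 3.98, 3.00 and 3.08 in starburst cells (4.36 ± 0.33, adjusted p = 3.51e-09). Igfbp7 read 9.44, 9.51 and 9.66 in starburst and 3.87, 4.23 and 5.52 in Arc cells (-5.00 ± 0.53, adjusted p = 8.47e-07). Igfbp6 read 8.64, 8.18 and 8.44 against 3.45, 3.65 and 3.70 (-4.82 ± 0.39, adjusted p = 9.48e-09). Calls in the insulin-like growth factor binding protein family thus went in both directions. Wfikkn2, which binds growth and differentiation factors of the TGF-beta superfamily, read 7.58, 7.09 and 6.16 in Arc and 2.39, 4.18 and 2.83 in starburst cells. Tgfb3, a ligand of that superfamily, ran the other way (4.81, 4.42 and 4.20 against 7.17, 6.64 and 6.80; -2.39 ± 0.22). Dkk3, of the dickkopf family, was higher in Arc cells by 1.63 ± 0.23.

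Lipid and myelin-related genes gave 5 higher and 0 lower calls among 19 tested, against 2.16% and 1.39% of all tested genes. The median was 0.70 against 0.03 over all genes. Members were chosen with earlier results of these data known, so the count and median describe this list and test no theme. Plppr5, a neuronal phospholipid phosphatase-related protein that shapes protrusions, read 7.08, 6.27 and 6.28 in Arc and 2.36, 1.85 and 2.24 in starburst cells (4.39 ± 0.32, adjusted p = 1.79e-09). Gdpd3, a lysophospholipase D, read 6.36, 6.88 and 5.86 against 2.51, 2.45 and 2.59 (3.85 ± 0.28, adjusted p = 2.18e-09). Both were under the filter level on every starburst array. Sqle, squalene epoxidase of cholesterol synthesis, read 8.25, 8.26 and 7.84 against 6.17, 6.00 and 6.84 (1.78 ± 0.35), and Hmgcs1, an earlier enzyme of that pathway, 6.29, 5.76 and 4.99 against 3.74, 3.74 and 4.43 (1.71 ± 0.33). Msmo1, a further enzyme of the pathway that is not on the list, was called on the Arc side and held (8.72, 8.65 and 8.42 against 6.55, 6.42 and 6.67; 2.05 ± 0.26). The fifth call, Elovl6, was lost without Arc replicate 2 or starburst replicate 1 or 2 (adjusted p up to 0.0716).

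Outside the lists, the widest differences fell on genes of varied function. Lor, which encodes loricrin of the epidermal cornified envelope, read 9.57, 9.10 and 8.14 in Arc and 2.33, 2.64 and 2.32 in starburst cells, 6.51 ± 0.94 (adjusted p = 7.28e-05) and the widest of the higher calls. Cones were spread over the range between (6.22, 4.66 and 3.46). In mixtures with 50, 100 and 75 cones, replicate 1 read 6.20, 5.61 and 6.70, while replicates 2 and 3 lay between 2.55 and 3.13. With 150, 157 and 183 cones, replicate 1 read 3.23, 2.47 and 2.43. The source of this spread was not tested. Frmd5, a FERM domain protein, read 8.02, 7.81 and 7.55 against 2.86, 3.25 and 2.97, and Clmp, an adhesion molecule of the CTX family, 6.40, 5.85 and 6.71 against 2.24, 2.45 and 2.80. Ucma, a secreted cartilage matrix protein, read 6.76, 6.25 and 4.99 against 2.21, 2.36 and 2.12. Lower in Arc cells were Cmtm8 and Cmtm7, MARVEL domain proteins. Cmtm8 read 8.74, 8.76 and 8.67 in starburst and 3.00, 2.89 and 3.27 in Arc cells (-5.67 ± 0.27), and Cmtm7 6.89, 6.80 and 6.92 against 3.06, 3.30 and 2.70 (-3.85 ± 0.31). Gsto1, a glutathione transferase, read 9.28, 9.12 and 9.09 in starburst against 5.81, 6.06 and 6.38. Foxn3, a forkhead factor, was bright in both, with 11.03, 11.26 and 11.06 in starburst and 9.33, 9.86 and 9.65 in Arc cells (-1.50 ± 0.16). Gjc1, a connexin gene of neuronal gap junctions, was the 1 call of 8 tested connexins and pannexins (5.59, 5.89 and 5.76 in Arc against 3.27, 3.19 and 3.48).

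**Figure D4:**
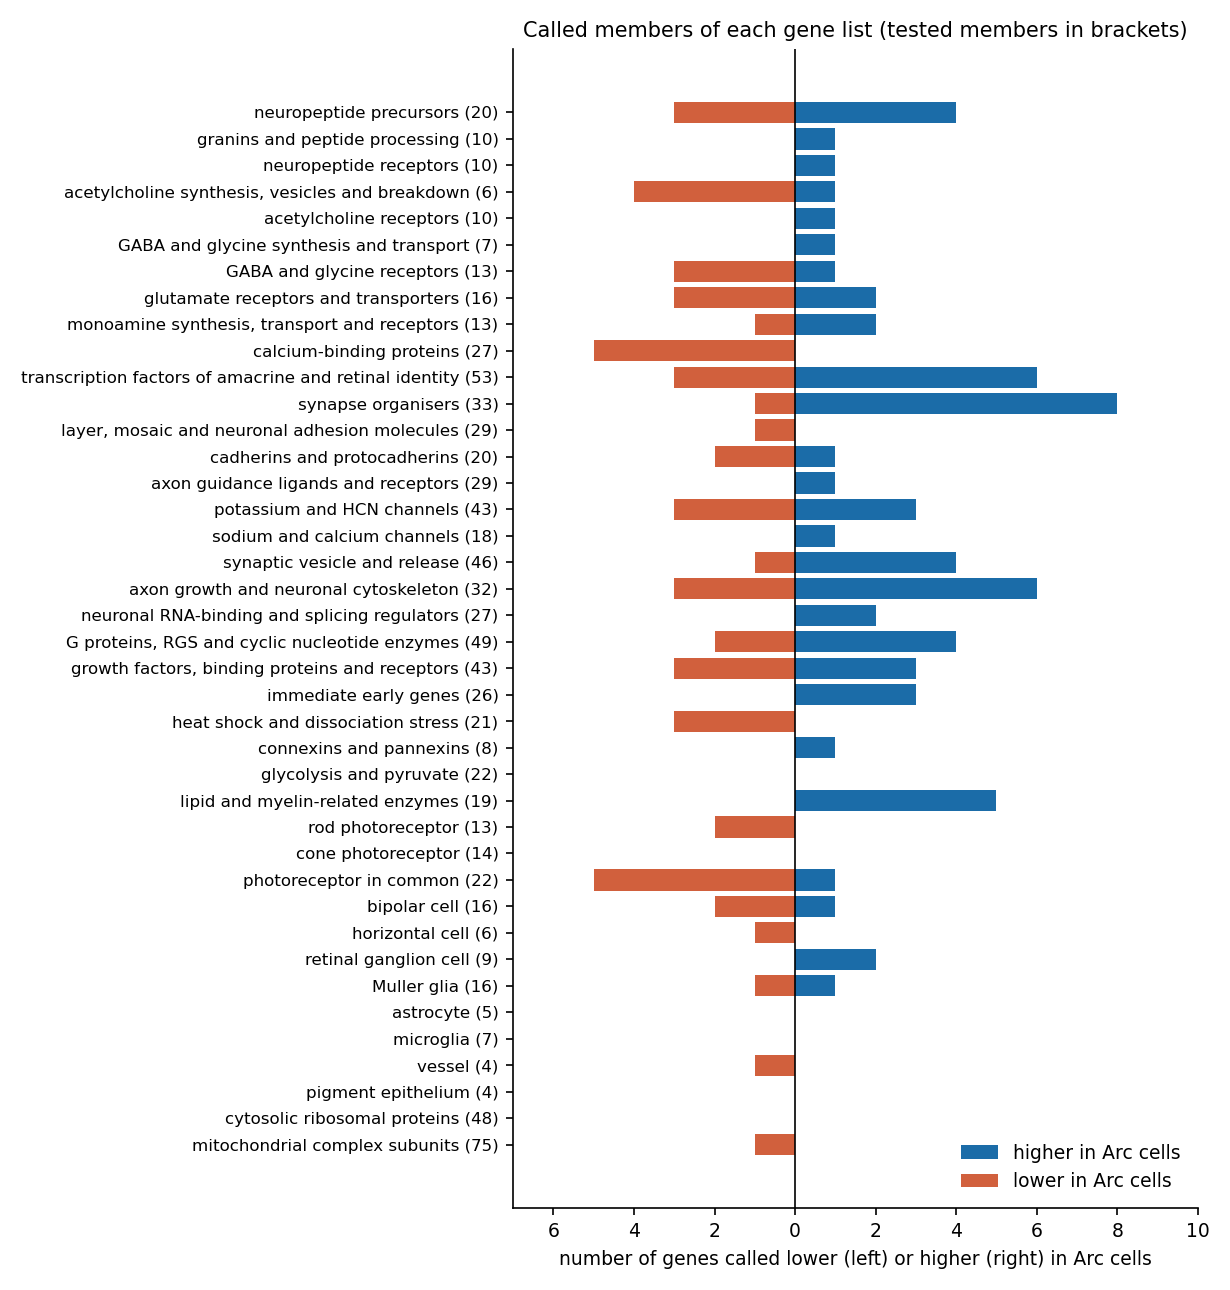
Number of genes called lower (orange, left) and higher (blue, right) in Arc cells for each gene list, with the number of tested members in brackets. Synapse organisers have 8 higher calls, calcium-binding proteins 5 lower calls, and glycolysis and ribosomal protein lists none; over all tested genes 2.16% were higher and 1.39% lower.

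Housekeeping groups gave few calls. Of 48 tested cytosolic ribosomal protein genes 0 were called by limma and 18 had an unadjusted p under 0.05, yet 26 lay wholly below the starburst values (10.5% of all genes did) and the median was -0.25: Rps14 read 11.10, 11.22 and 11.25 in Arc and 11.54, 11.41 and 11.50 in starburst cells. Of 75 mitochondrial complex subunits 1 was called. It was Cox6a2, the muscle form of a cytochrome oxidase subunit, lower in Arc cells (3.62, 3.97 and 4.77 against 6.57, 6.07 and 6.32; -2.20 ± 0.39). Atp5g3, a subunit of ATP synthase, read 11.16, 11.17 and 11.06 against 11.06, 11.08 and 11.12. Of 22 tested glycolytic genes 0 were called by limma and 3 had an unadjusted p under 0.05, and Aldoa read 10.92, 10.71 and 10.93 against 10.52, 10.47 and 10.53 (adjusted p = 0.158).

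Signs of handling were compared because sorting can induce them. Of 26 tested immediate early genes 3 were higher in Arc cells (Nr4a2, Arc and Nptx2, described above) and 0 lower, against 2.16% and 1.39% of all tested genes. The array means of the list were 3.61 to 3.75 in Arc and 3.35 to 3.44 in starburst cells. Of 21 tested heat shock and dissociation genes 3 were lower and 0 higher, against 1.39% and 2.16% of all tested genes. The array means of that list were 5.96 to 5.98 in Arc and 6.13 to 6.17 in starburst cells. Wholly above the starburst values lay 6 of the 21 and wholly below 5, against 14.5% and 10.5% of all tested genes, and the median was 0.13. Nupr1, a stress-induced chromatin protein, read 8.45, 7.88 and 8.15 in starburst and 3.93, 3.70 and 3.73 in Arc cells (-4.37 ± 0.33, adjusted p = 4.16e-09), and Gadd45g 6.58, 6.17 and 6.10 against 4.56, 4.24 and 4.59 (-1.82 ± 0.39). Mt2, a metallothionein, was called but lost without Arc replicate 1 or 3 or starburst replicate 1 or 2 (adjusted p up to 0.0926). The chaperone genes Hspa8 and Hsp90aa1 were near 10 on all 6 arrays and not called (adjusted p = 0.222 and 0.244). Their Arc and starburst values did not overlap, with gaps of 0.21 and 0.10 between the groups. The part of handling in the result was not tested.

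Photoreceptor genes were present in both groups, and several were lower in Arc cells. The mean level of 14 measured rod genes was 4.70 to 5.12 on Arc arrays, 5.40 to 5.92 on starburst arrays and 6.32 to 7.41 on cone arrays, with starburst replicate 2 the highest of its group. On the log2 scale the summed rod level was 9.47 to 9.97 in Arc and 10.34 to 11.17 in starburst cells. Of 13 tested rod genes 8 lay wholly below the starburst values (10.5% of all tested genes did), 2 were called lower and the median was -0.53. Rom1, an outer segment disc protein, read 7.27, 6.77 and 7.18 against 8.33, 9.13 and 8.09 (-1.44 ± 0.22, adjusted p = 1.15e-04). Gngt1, the rod transducin gamma subunit, was lost without Arc replicate 1 or 2 or starburst replicate 2, with -0.86 without Arc replicate 2. Of 22 tested genes shared by rods and cones 10 lay wholly below the starburst values and 2 wholly above, against 10.5% and 14.5% of all tested genes. The median of the 22 was -0.32, and 5 were called lower, against 1.39% of all tested genes. Guca1a, a guanylate cyclase activator, read 7.51, 7.37 and 7.48 against 8.93, 9.71 and 8.69 (-1.66 ± 0.33), and Pdc, phosducin, 7.76, 7.79 and 7.71 against 8.74, 9.07 and 8.95 (-1.17 ± 0.16). With them went Cplx4, and calls of Rdh12 and Otx2 that did not hold. Rdh12 was lost without Arc replicate 3 or starburst replicate 1 or 2 (adjusted p up to 0.0803), and Otx2 was -0.84 without starburst replicate 2. Isoc1 was the 1 member called higher in Arc cells (6.14, 4.81 and 6.16 against 4.09, 3.07 and 3.85). Pure cones read 3.67, 3.52 and 3.60 in Isoc1, within the starburst range, so its listing as a photoreceptor gene was not borne out here. Of 14 tested cone genes 0 were called by limma and 1 had an unadjusted p under 0.05. Wholly below the starburst values lay 2 of the 14 and wholly above 0, against 10.5% and 14.5% of all tested genes. Pde6h read 5.34, 3.75 and 3.49 in Arc and 5.49, 5.55 and 4.76 in starburst cells, against 10.38 to 11.49 in cones. The cone opsin gene Opn1mw read 3.21, 2.92 and 3.00 in Arc and 3.93, 6.04 and 3.94 in starburst cells. That was the list's widest difference (-1.59). The part of photoreceptor RNA in these differences was not tested.

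**Figure D5:**
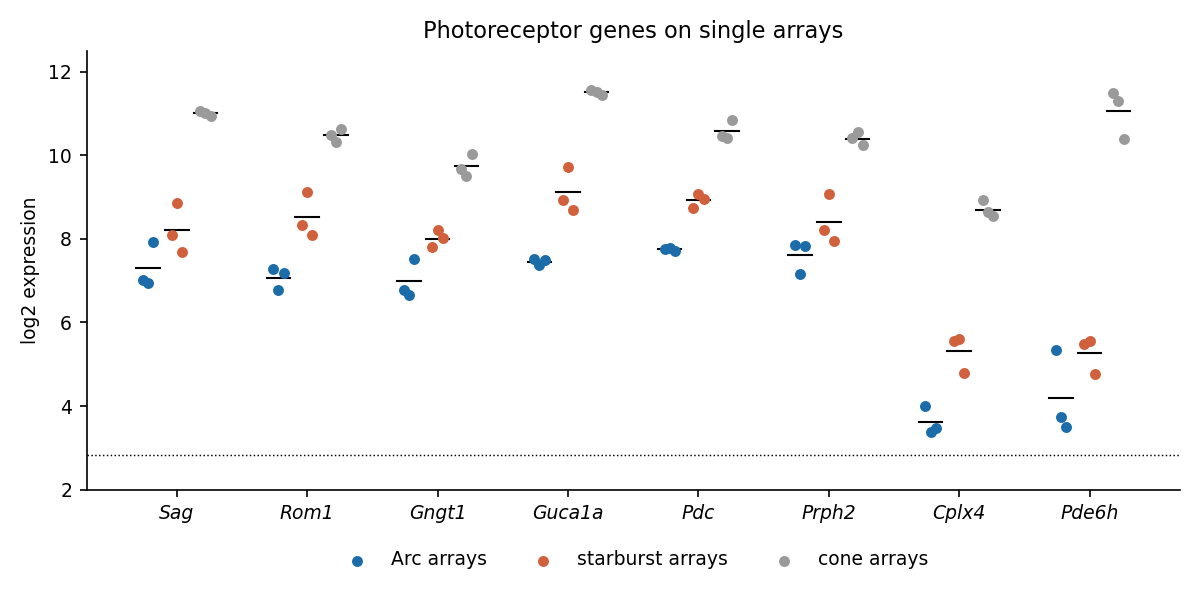
Log2 expression of 8 photoreceptor genes on each of 3 Arc (blue), 3 starburst (orange) and 3 pure cone arrays (grey), with group means as bars and the filter level of 2.83 dotted. Cone arrays are highest for every gene; Guca1a, Pdc and Rom1 are lower on all Arc arrays than on all starburst arrays, while Sag and Pde6h overlap.

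Markers of other cell types were read as lists. Summed bipolar cell markers were 7.23 to 7.24 on the log2 scale in Arc and 9.13 to 9.67 in starburst cells. The list contains Isl1. Of its 18 measured genes 5, among them Grm6 and Trpm1, were under the filter level on all 6 arrays. Of the 16 tested, 5 lay wholly below the starburst values and 2 wholly above, against 10.5% and 14.5% of all tested genes. The median was -0.24, and Pcp2 and Gng13 were highest on starburst replicate 2, as given above. Among 16 tested bipolar genes 1 was called higher (Car8, at 1.38) and 2 lower, Isl1 and Otx2. Summed Muller glia markers overlapped (10.01 to 10.38 in Arc and 9.80 to 10.37 in starburst cells), and its calls were Dkk3, higher, and Gpr37, lower in Arc cells (4.81, 4.20 and 4.40 against 7.91, 7.74 and 7.60; -3.28 ± 0.20, adjusted p = 8.44e-11). Glial genes with high levels in both groups were Clu (8.54, 8.83 and 8.35 against 6.54, 7.87 and 6.29; adjusted p = 0.107) and Car2 (8.0, 8.12 and 7.67 against 7.37, 7.52 and 7.03; adjusted p = 0.281). Of the horizontal cell genes Calb1 was called. Septin4, a further gene of that list, read 7.81, 7.85 and 7.89 against 8.17, 8.22 and 8.38. Vtn, from the vessel list and itself high in cones (9.54 to 10.54), was called lower in Arc cells but lost without starburst replicate 2 (adjusted p = 0.0532). Of 5 astrocyte, 7 microglia and 4 pigment epithelium genes tested 0 were called by limma, and 1, 2 and 0 had an unadjusted p under 0.05. Summed microglia markers nevertheless lay wholly apart (6.29 to 6.32 in Arc and 6.46 to 7.09 in starburst cells), and all 7 tested microglia genes were lower in Arc cells on average, by differences from -1.04 to -0.015. Of the 12 measured, 7 were under the filter level on all 6 arrays. Summed vessel markers, which include Vtn, also lay apart (6.52 to 6.90 against 7.24 to 8.36), with 8 of 12 under that level on all 6. The part of these cell types in the results was not tested. Gfap, Aif1 and Rpe65 were under the filter level on all 6 arrays.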

How the data were processed

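Each array measured RNA from 200 sorted cells. The deposited log2 values were made by the authors with RMA in the R package oligo (R 2.11.1, mm9), per the submitters' processing notes, and which arrays were normalized together is not given in the sources used here. RMA equalises the distributions of arrays and compresses differences of dim genes.

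Of 22347 probe sets, 19446 had 1 symbol, 735 several and 2166 none, and only the first were used, with the brightest probe set per gene. Entrez numbers matched RefSeq for 19224 of 19301 genes, and 0 symbols differed. Genes above 2.83 on at least 3 of 27 arrays were tested (12441) with limma (3.58.1, under R 4.3.3; a linear fit with 9 group means and moderated variances, 18 residual degrees of freedom, two-sided, Benjamini-Hochberg). The number of arrays, 3 per group, limits the precision. SE is the moderated fit's over 27 arrays. In 41 lists 1221 genes were named, 1147 measured and 863 tested, and lists share genes. Members and lists were chosen with earlier results of these data known. Named genes were the markers and reporters, the 15 widest held calls and the 8 brightest in each direction, and for each list up to 4 held calls a direction, calls that did not hold and up to 2 bright uncalled members. Predicted genes were only counted. Pcp2, Gng13, S100b, Cx3cr1, Opn1mw, Xist and Eif2s3y, and all genes named in the closing section, were chosen after their values were seen.

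Over all tested genes, same-numbered Arc and starburst arrays did not deviate together (correlations of deviations 0.0212, 0.0095 and 0.0511). The Y-linked Eif2s3y did go with replicate number. Over all 9 groups it read 1.62 to 2.11 on replicate 1 and 2.33 to 4.50 on replicate 3. What same-numbered arrays share is not given in the labels. No 2 arrays were identical. Replicates are biological per the labels. In data simulated with the spread of these arrays, with 50 changed genes at each size among 12441, 30%, 98%, 100% and 100% of true log2 differences of 1, 2, 3 and 4 were recovered, with 6 false calls.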

Additional observations from a re-analysis of the deposited data

How the results depend on the processing

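Counts of called genes stayed within 1.5 times of 442 under 18 of 20 alternatives. Leaving out 1 array gave 371 to 421 calls, 221 to 273 of them higher in Arc cells and 145 to 170 lower, and 98 to 111 calls among listed genes against 112. Without a limit on the fold 715 genes were called, 436 higher and 279 lower. Testing against a log2 difference of 1 (treat) left 100, 64 higher and 36 lower, and 46 listed genes. Normalizing again by quantiles gave 209 higher and 172 lower. A fit of the 6 arrays alone called 448, of which 369 were shared with the 442. The labels do not say whether replicate number pairs these samples. With it as a replicate block the fit of 27 arrays called 449 (273 higher and 176 lower), and that of 6 arrays 397 (252 and 145), where 20 of 118 named calls were lost. Pantr1, not described above, and Gng8 lost their calls with 9 arrays (adjusted p = 0.0697 and 0.0617). Kcnip1 and Clu were called with array weights (adjusted p = 0.0433 and 0.0284), and Neurod1 and Sag after quantile normalization (-1.02 and -1.02). No called gene among those named changed direction under any of the 20. Uncalled genes did when 1 array was left out: Eif2s3y ranged from -0.53 to 0.90, Xist from -0.71 to 0.98, Gria4 from -0.016 to 0.34, Glrb from -0.27 to 0.026 and S100b from -1.28 to 0.020. Xist was 0.21 and 0.022 without starburst replicate 1 and 2. The cause was not tested. Dim levels on both sides limit what could be called.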

Other observations

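Further genes of cholesterol synthesis, looked up after the values of Sqle, Hmgcs1 and Msmo1 had been seen, lay on the same side. Nsdhl, a sterol dehydrogenase, read 6.47, 7.03 and 6.82 in Arc and 4.40, 4.94 and 5.24 in starburst cells (1.92 ± 0.41, limma adjusted p = 0.00451). Fdft1, which makes squalene, read 6.80, 6.87 and 6.80 against 6.01, 5.55 and 5.83, and Sc5d, a sterol desaturase, 5.04, 5.96 and 4.84 against 3.78, 3.58 and 4.05. The calls of Fdft1 and Sc5d did not hold when 1 array was left out. Cyp51, Dhcr7, Lss and Insig1 were not called (limma adjusted p = 0.064, 0.311, 0.303 and 0.0638), with differences of 0.74, 0.25, 0.43 and 1.04.

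Called genes that are next to each other in the RefSeq order of 19284 measured genes made 15 pairs, 12 of them in the same direction. Chat and Slc18a3, which lie in one locus, were both lower in Arc cells (-1.23 and -7.57), as were the receptor subunit genes Gabra4 and Gabrb1 (-2.09 and -1.49). Tmem176b and Tmem176a, related membrane proteins, were both higher (3.33 and 1.29), as were Coro1a and Gdpd3 (2.42 and 3.85). Dok5 and Cbln4 went in opposite directions: Dok5, a docking protein of receptor kinases, read 3.80, 3.49 and 3.77 in Arc and 6.30, 6.34 and 5.86 in starburst cells (-2.48), beside the 3.12 of Cbln4.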
